A study of Mus musculus with 8 samples.

Results

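In the mouse hippocampus, 4648 chromatin regions were selective for mature oligodendrocytes (ODC) against the pool of all other nuclei. ODC are the cells that wrap axons in myelin. These regions made up 3.0% of the 154785 regions that carried an ATAC peak in each of 4 single-nucleus libraries. The libraries were prepared from hippocampi of male C57BL/6J pups at postnatal day 21, with RNA (GEX) and chromatin accessibility (ATAC) measured in the same nuclei. Dams were fed a diet with folic acid (FA) at 2 mg/kg (MF, the control) or 20 mg/kg (HF) from before mating until the end of lactation. The pups were wild type in both groups and differed by the dams' diet, and each diet had 2 libraries (MF1, MF2, HF1 and HF2). How many pups went into a library is not given in the sources used here, and the study calls the libraries of a diet biological replicates, so p-values measure the spread between libraries.

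A nucleus was counted as ODC when at least 3 of the 8 transcripts Mog, Mal, Mag, Cldn11, Prr5l, Aspa, Opalin and Cldn14 were detected. Slc17a7, Gad2, Csf1r and Aqp4, which mark excitatory neurons, inhibitory neurons, microglia and astrocytes, could together hold at most 1 UMI. This rule gave 990 of 14297 nuclei, with 217, 167, 342 and 264 nuclei in MF1, MF2, HF1 and HF2. All other barcodes formed the rest. A region was kept when ODC nuclei held at least 50 cut sites in it and its level was at least 4 times that of the rest in the pooled MF and in the pooled HF libraries. The level is the number of transposition cut sites per 1000000 cut sites in the peaks of those nuclei (CPM), with 1 cut site added for the ratio. Levels in ODC and in the rest therefore chose the regions, and they are described here without a test. Precursors of oligodendrocytes are a small part of the rest, so a selective region can be as open or more open in them.

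Library totals ran from 79982157 to 113105243 cut sites and from 39223075 to 47460174 UMIs, and ODC nuclei held 16324703 cut sites. Between 43 and 62 barcode strings of a library were also present in another library, and they were kept. Myelin RNA of the ODC nuclei carried the label. Mbp, a major myelin protein gene that the rule did not use, was detected in 97.7 to 99.2% of ODC nuclei across libraries. In the rest it was detected in 52.9 to 59.2% of nuclei, at a lower level. Mbp stood at 6610 to 7331 UMIs per 1000000 UMIs (RNA CPM) in ODC and at 324 to 366 in the rest. Pdgfra and Cspg4, which mark oligodendrocyte progenitor cells (OPC), were detected in 2.76 to 5.30% and 3.51 to 6.06% of ODC nuclei. In the rest they were detected in 7.90 to 9.58% and 7.15 to 8.40% of nuclei. Their levels overlapped between ODC and the rest. Pdgfra stood at 10.4 to 24.9 RNA CPM in ODC and 16.6 to 23.7 in the rest, and Cspg4 at 8.21 to 18.3 and 9.96 to 13.5. Enpp6, a gene of newly formed oligodendrocytes, was detected in 40.1 to 48.4% of ODC nuclei and in 5.47 to 6.62% of the rest. Bmp4, a gene of differentiating precursors, was detected in 2.92 to 4.15% of ODC nuclei and in 3.36 to 4.23% of the rest. Enpp6 but not Bmp4 was thus detected more often in ODC nuclei, and whether the group holds newly formed cells was not tested. Slc17a7 RNA was found in 12.1 to 19.2% of ODC nuclei against 51.0 to 58.5% of the rest.

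Oligodendrocytes arise from OPC, which leave the cell cycle, pass through a differentiating precursor stage and then produce myelin. Open chromatin exposes promoters and distal enhancers to transcription factors. In this lineage SOX10, OLIG2 and MYRF are the best known of these factors. SOX proteins bind short A and T rich cores such as ACAAAG and ACAATG, and OLIG proteins bind the E-box CAGCTG or CATCTG.

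Representative sequences are shown for the region of highest ratio, for the region of highest ratio linked to each of 5 gene lists, and for the region that differed most clearly between precursor stages. Each is the central 300 bases of the region on the plus strand of GRCm38, with every ACAAAG or ACAATG core on either strand in capitals. The first lay between genes at chr3:15112237-15112536, and the Mobp window covered the promoter at chr9:120149381-120149680. The others lay at chr3:125883130-125883429 in an intron of Ugt8a, chr7:37638731-37639030 in an intron of Zfp536, chr1:80824023-80824322 with the start of Dock10 the nearest, chr6:126658068-126658367 with the start of Kcna1 the nearest, and chr11:8638113-8638412 in an intron of Tns3.
Intergenic, nearest start Gm33819: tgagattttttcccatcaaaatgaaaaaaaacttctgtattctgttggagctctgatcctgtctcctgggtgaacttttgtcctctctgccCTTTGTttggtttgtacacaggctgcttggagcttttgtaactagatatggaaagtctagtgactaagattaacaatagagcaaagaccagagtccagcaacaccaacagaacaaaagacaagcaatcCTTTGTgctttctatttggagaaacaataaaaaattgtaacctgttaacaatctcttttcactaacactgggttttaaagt
Mobp promoter: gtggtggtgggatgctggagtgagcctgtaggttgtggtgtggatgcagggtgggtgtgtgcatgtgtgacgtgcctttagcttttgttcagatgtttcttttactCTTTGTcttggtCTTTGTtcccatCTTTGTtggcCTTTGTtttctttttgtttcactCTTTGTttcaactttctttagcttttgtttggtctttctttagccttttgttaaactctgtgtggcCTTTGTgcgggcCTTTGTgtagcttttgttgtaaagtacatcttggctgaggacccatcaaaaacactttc
Ugt8a intron: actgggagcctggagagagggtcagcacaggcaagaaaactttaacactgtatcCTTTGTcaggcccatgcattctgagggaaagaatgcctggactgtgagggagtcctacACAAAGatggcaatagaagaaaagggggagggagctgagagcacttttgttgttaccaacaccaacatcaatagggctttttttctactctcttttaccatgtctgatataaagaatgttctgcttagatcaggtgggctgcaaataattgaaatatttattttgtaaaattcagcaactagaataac
Zfp536 intron: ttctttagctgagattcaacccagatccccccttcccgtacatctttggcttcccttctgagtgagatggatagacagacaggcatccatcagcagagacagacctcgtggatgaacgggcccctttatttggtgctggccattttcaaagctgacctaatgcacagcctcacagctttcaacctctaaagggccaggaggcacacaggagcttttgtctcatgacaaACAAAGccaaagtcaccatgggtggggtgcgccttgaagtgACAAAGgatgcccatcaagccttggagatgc
Intergenic, nearest start Dock10: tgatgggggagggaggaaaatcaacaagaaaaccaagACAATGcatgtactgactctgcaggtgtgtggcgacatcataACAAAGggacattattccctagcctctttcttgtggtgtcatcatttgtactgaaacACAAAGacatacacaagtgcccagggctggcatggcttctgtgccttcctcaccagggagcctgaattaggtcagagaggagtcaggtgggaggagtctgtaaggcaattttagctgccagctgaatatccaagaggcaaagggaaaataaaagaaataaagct
Intergenic, nearest start Kcna1: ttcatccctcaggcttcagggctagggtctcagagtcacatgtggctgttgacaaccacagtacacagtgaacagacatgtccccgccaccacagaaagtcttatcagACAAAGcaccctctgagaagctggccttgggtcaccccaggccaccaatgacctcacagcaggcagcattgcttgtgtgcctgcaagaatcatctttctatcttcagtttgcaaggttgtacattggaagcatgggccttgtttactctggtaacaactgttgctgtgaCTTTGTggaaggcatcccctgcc
Tns3 intron: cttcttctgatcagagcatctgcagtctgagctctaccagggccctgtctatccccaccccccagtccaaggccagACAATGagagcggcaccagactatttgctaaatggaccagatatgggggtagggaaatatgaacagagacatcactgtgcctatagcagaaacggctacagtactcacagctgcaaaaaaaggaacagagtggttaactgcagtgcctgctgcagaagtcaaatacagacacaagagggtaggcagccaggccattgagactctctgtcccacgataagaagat

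The Mobp window held 7 cores, all of the ACAAAG type and all read as CTTTGT on this strand. The Dock10 window held 3, the Gm33819, Ugt8a, Zfp536 and Kcna1 windows held 2 each, and the Tns3 window held 1.

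Among all 4648 regions, the smaller of the MF and HF ratios had a median of 6.84 and reached 30.02. ODC cut sites per region ran from 50 to 1774, with a median of 268. The fold also held library by library for most regions: 3807 (81.9%) reached 4-fold in each of the 4 libraries, 696 in 3 and 145 in 2. At the threshold, the regions just inside were nearest to the starts of Gm44176, Gm13936 and Fbp1, with smaller ratios of 4.001, 4.0007 and 4.0003. Those just outside lay near Rnf144a, Sars and 4930429C20Rik, at 3.9996, 3.9989 and 3.996.

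The 20 regions of highest ratio were mostly distal. Of these, 12 were intergenic, 6 intronic and 2 in promoters, their smaller ratios ran from 24.3 to 30.02, and 9 had a noncoding gene as the linked gene. The region at chr3:15111916-15112857 near the noncoding gene Gm33819 ranked first, with ODC levels of 37.3, 26.6, 27.7 and 34.5 CPM in MF1, MF2, HF1 and HF2. The rest stood at 1.29, 0.878, 0.864 and 0.983 CPM there. Gm33819 RNA was at most 0.746 RNA CPM in ODC, so the strongest region had almost no transcript from its nearest gene. A region in an intron of Pla2g4a, a phospholipase that releases arachidonic acid, held 22.6, 18.2, 26.7 and 22.1 CPM, and a promoter region linked to Plekhh1 held 32.2, 28.5, 26.9 and 38.3. The latter lay 6419 bp from the Plekhh1 start. Plekhh1 RNA was 226 to 272 RNA CPM in ODC and 9.23 to 12.5 in the rest.

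Regions were linked to the gene whose body held the region centre, or otherwise to the gene with the nearest start. This link rests on position alone. Myelin protein genes had the highest share of selective regions of the 5 lists examined. Of the 217 shared regions linked to the 30 genes, 54 (24.9%) were ODC-selective, against 3.0% of all shared regions, and 23 of the 30 genes had at least 1. Among regions with 50 ODC cut sites, a denominator chosen after the data were seen, the selective share was 8.87% over all genes. It was 36.0% for myelin proteins, 21.5% for lipid synthesis, 15.3% for transcription factors, 15.1% for paranode and junction genes and 18.9% for receptors and signalling. Mbp and Cldn11 had 5 each, Sirt2 had 4, and Mag and Opalin had 3 each. Omg, Mal2, Cd81, Myo1d, Car2, Apod and Qdpr had none. Mog, Mal, Mag, Cldn11 and Opalin were also markers that chose the nuclei, as were Aspa and Prr5l of later lists. Promoters of Mobp, Mog, Mag, Ermn, Opalin and Mbp were all among the selective regions, with smaller ratios of 16.1 to 24.1. The Mbp region lay 79266 bp from the start of the gene, at an annotated transcript start inside it.

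The Mobp promoter, at chr9:120149058-120150003, had the highest ratio among the regions of myelin protein genes. Its ODC level was 59.0, 56.9, 53.0 and 55.3 CPM in MF1, MF2, HF1 and HF2. In differentiating precursors (COP, defined below by their RNA) it was 3.72, 0, 0 and 7.09 CPM. In astrocytes (AST) it was 0 in every library, a count that allows up to 0.138 CPM over the 4 if cut sites are independent. The region was picked by its ODC level over a rest that holds COP, so the distance from ODC to COP is description only. The Mog promoter, at chr17:37022934-37023832, held 48.5, 35.6, 43.6 and 44.1 CPM in ODC. It already held 18.6, 12.1, 7.94 and 17.7 CPM in COP, and 0, 3.43, 0 and 0 in OPC. An intergenic region next to Gsn, which encodes the actin-severing protein gelsolin, held 23.6, 24.0, 26.1 and 18.9 CPM in ODC and 5.58, 2.43, 4.97 and 14.2 in COP.

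Genes of myelin lipid synthesis had 29 selective regions among 251 shared regions (11.6%), spread over 15 of 38 genes. Ugt8a, which makes galactosylceramide, the main glycolipid of myelin, had 6 of its 16 regions selective, and Fa2h, which hydroxylates myelin fatty acids, had 4 of 8. The intronic Ugt8a region held 20.4, 16.1, 19.4 and 24.7 CPM in ODC and 0 or 0.521 CPM in AST. A distal Ugt8a region at chr3:125969200-125970117 held 27.4, 24.5, 24.9 and 26.1 CPM in ODC and at most 11.2 in COP. The third of this list lay in Nkain1, a membrane protein that contacts the sodium pump and makes no lipid, with 53.3, 38.5, 46.9 and 37.2 CPM. Without Nkain1 the list had 26 selective regions of 239 (10.9%), in 14 of 37 genes.

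The list of oligodendrocyte transcription factors had 58 selective regions among 773 (7.50%), in 27 of 49 genes. Sox10 had its only linked shared region selective, Olig2 had 2 of 4, Olig1 1 of 3, Myrf 2 of 7 and Nkx6-2 1 of 3. Gm10863, whose annotated span begins next to that Sox10 region, had 6 of 10 selective, so counts by linked gene are not counts by locus. Zfp536, a zinc-finger repressor, and Chd7, a chromatin remodeller, had 5 each. NFI genes, which act in many glia and neurons, had 1 of 42 for Nfia and 1 of 53 for Nfib. The first Zfp536 region held 18.8, 15.0, 20.2 and 22.5 CPM in ODC and 0, 0, 0 and 3.55 in COP. The promoter region of St18, a MYT-family zinc-finger gene, was different: it held 25.8, 18.7, 24.6 and 20.3 CPM in ODC and 27.9, 20.6, 18.9 and 19.5 in COP, so the stages overlapped. OPC held 1.45, 0, 4.49 and 0 CPM there, and St18 RNA was 1812 to 2303 RNA CPM in COP against 7.91 to 64.9 in OPC.

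For paranode, junction and cytoskeleton genes, 68 of 1083 regions (6.28%) were selective, in 30 of 42 genes. Nfasc, whose glial isoform holds the paranodal junction, had 4, as did Dst, Map7, Epb41l2, Cadm2 and Dock10. The Dock10 region of highest ratio held 43.7, 35.6, 39.9 and 35.4 CPM in ODC and no cut site in the COP nuclei of any library. Those nuclei held 537309 to 1006980 cut sites per library. If cut sites are independent, a count of 0 allows 2.98 to 5.58 CPM in a single library and 1.02 CPM over all 4, counting error only. Counts were mostly even, so cut sites were not independent and these bounds are too low. Dock10 encodes a guanine nucleotide exchange factor, and its RNA was 2434 to 3009 RNA CPM in ODC and 289 to 322 in the rest. The 2 Dock5 regions named by the same rule held 13.2 to 24.2 CPM in ODC.

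Receptor, channel and signalling genes had 80 selective regions among 1042 (7.68%), in 28 of 45 genes. Gpr17, the receptor of differentiating precursors, had its only linked region selective, Plxnb3 had 3 of 4, Pde8a 4 of 8 and Sema6a 6 of 19. A region near Kcna1, a potassium channel gene, held 34.4, 22.1, 27.7 and 29.2 CPM in ODC and 0 in OPC of every library. This allows up to 0.497 CPM over the 4 if cut sites are independent. A region inside the annotated span of Fgfr2 held 28.4, 29.8, 41.2 and 37.9 CPM, and one in Pde4b, which degrades cAMP, held 24.6, 25.6, 33.2 and 28.7. In these last regions the HF libraries were both above the MF libraries. Over all ODC-selective regions this happened for 808 (17.4%), and over the 52380 regions with 50 ODC cut sites for 15.5%. The opposite separation was found for 551 (11.9%) of the selective regions and 15.7% of those 52380.

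**Figure D1:**
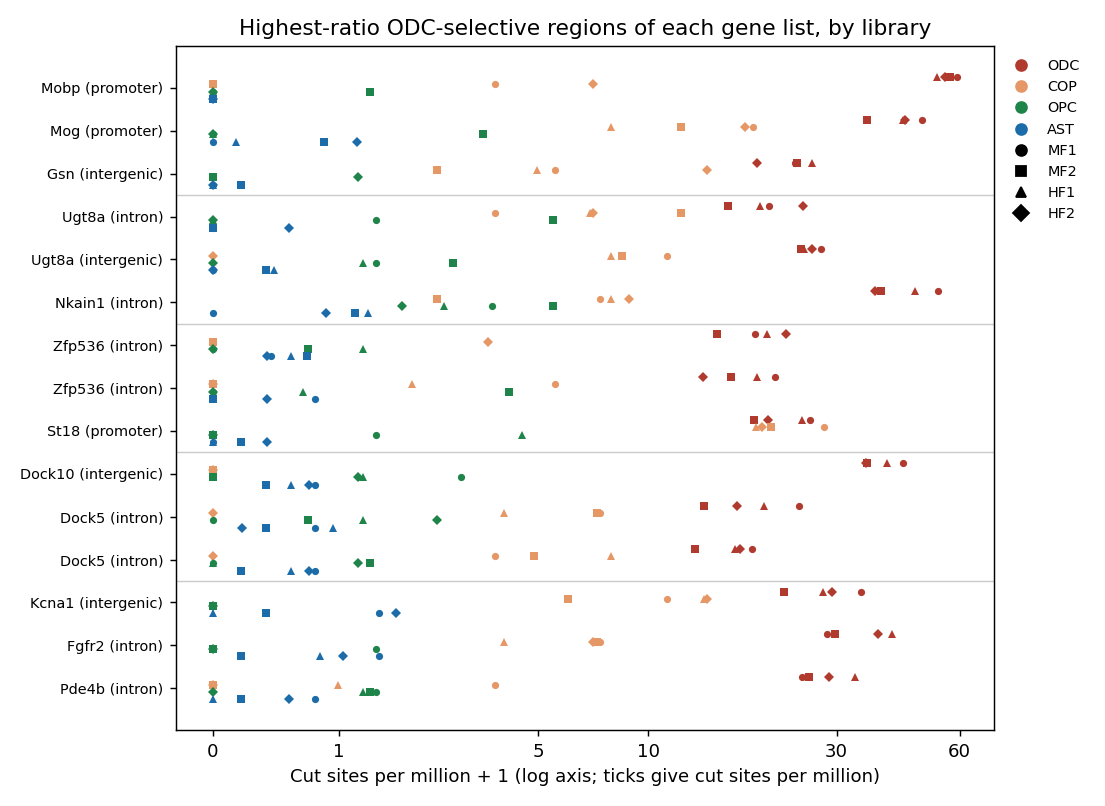
Levels of the 3 ODC-selective regions of highest ratio in each of 5 gene lists (rows, in groups of 3), in CPM plus 1 on a log axis; colours give the class of nuclei and symbols the library. The ODC values lie to the right of the OPC and AST values in every row, while the COP values of the St18 promoter overlap its ODC values. ODC levels chose these regions, so their place is a description.

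The selective regions were distributed over many genes. They were linked to 3267 genes, of which 2395 had 1 region and 50 had 5 or more, and 903 regions (19.4%) lay within 10 kb of another. Gm20388 had the most, with 13, but its annotated span is 4435 kb and holds other genes. Fgfr2 followed with 11 in a span of 2961 kb. Elmo1, an activator of Rac signalling, had 9 of its 69 regions selective, and Sox2ot, the noncoding gene that surrounds Sox2, had 8 of 37. Another 9 genes tied at 7, among them Rnf220, with 7 of 22. On the X chromosome 1.65% of shared regions were selective. Male nuclei carry a single X chromosome, which makes the 50 cut sites of the rule harder to reach there. The part of this in the X share was not tested.

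Promoters were a small part of the set. Regions with their centre within 1000 bp before or 100 bp after an annotated transcript start numbered 199 (4.28%), against 9.33% of all shared regions and 25.01% of the other regions with 50 ODC cut sites. That transcript start can belong to a gene other than the linked one. Introns held 56.5% of the selective and 48.9% of all shared regions, and intergenic sequence held 34.3 and 36.9%. Microglia-selective and astrocyte-selective regions, made by a rule of the same form (5837 and 4680 regions), were in promoters in 9.13 and 5.66%. Width and repeat content differed little: median widths were 929 bp for the ODC-selective and 924 bp for all shared regions, and median repeat shares of the central 300 bases were 7.33 and 7.67%. Median GC content was 49.3 and 48.0%.

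Of the 15 motifs searched, the SOX cores differed most in percentage points between the selective and all shared regions. Within the central 300 bases, 69.4% of the 4647 regions with sequence held ACAAAG or ACAATG on either strand, against 34.0% of all shared regions. The share was 30.5% in the other regions with 50 ODC cut sites, 41.4% in astrocyte-selective and 32.2% in microglia-selective regions. ACAAAG alone was present in 47.0 against 22.7%, and ACAATG in 40.7 against 15.0%. The selective regions also held a core more often than all shared regions of like GC content. Among regions of 22.3 to 43% GC, 79.4% of selective and 41.2% of all shared regions held a core, and among those of 53.3 to 90.3% GC, 57.6 and 22.1%.

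The other motifs differed by fewer percentage points. The E-box CAGCTG was present in 39.1% of selective and 23.9% of all shared regions, and both a SOX core and CAGCTG were present in 25.4 and 8.04%. CATCTG went the other way, at 32.3 and 35.7%. The MYRF-type letters CTGGCAC were found in 10.7 and 7.86%, and CTGGTAC in 4.67 and 2.99%. The TCF/LEF letters ATCAAAG (4.003 and 3.98%), the NKX2 letters CACTTGA (4.07 and 3.64%) and the AP-1 letters TGANTCA (13.3 and 14.0%) were close in both sets. The NFI letters TTGGCA were found in 21.6% of ODC-selective and 41.9% of astrocyte-selective regions, and the PU.1 letters GAGGAAGT in 1.55% of ODC-selective 14.05% of microglia-selective regions. Homeodomain letters TAATTA (5.90 and 8.66%), ETS letters CCGGAAG (1.14 and 2.84%), SP/KLF letters GGGGCGGGG (1.48 and 3.28%) and the CTCF core CCACNAGGG (1.87 and 2.09%) were rarer in selective than in all shared regions. The TCF/LEF letters share CAAAG with the SOX core, and the MYRF-type CTGGCAC shares TGGCA with the NFI letters. These are matches of letters on both strands and not measured binding.

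The SOX cores lay near the region centre. In the 50-bp bins next to the centre, ODC-selective regions held 4.65 and 4.63 cores per kb. In the outermost bins they held 1.40 and 1.55, close to the 1.45 and 1.47 of all shared regions. All shared regions held 1.44 per kb beside the centre.

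**Figure D2:**
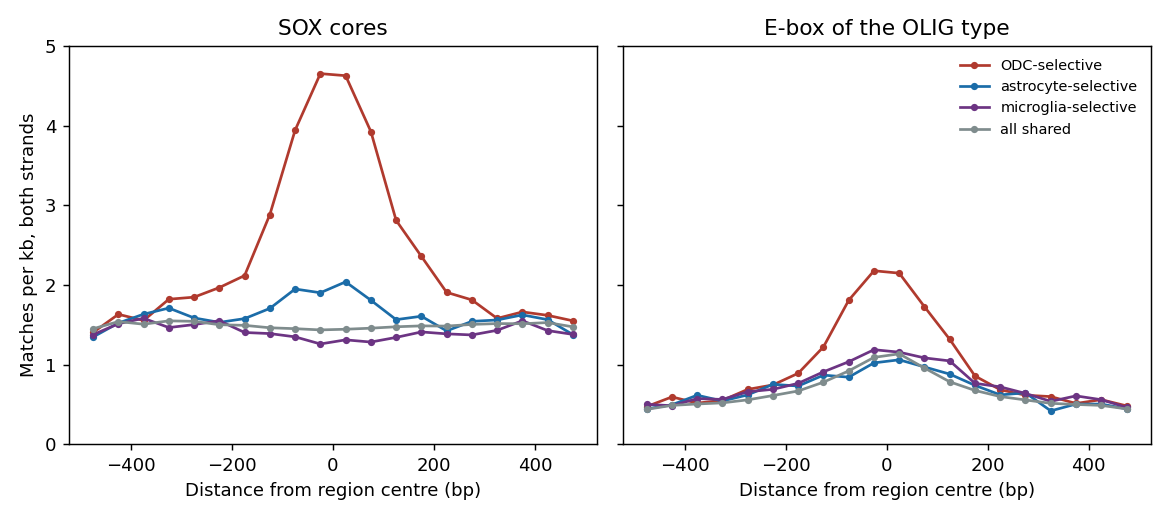
Matches per kb of both SOX cores together (left) and of the E-box CAGCTG (right) on both strands, by distance in bp from the region centre in 50-bp bins; lines are sets of regions. ODC-selective regions rise to 4.65 SOX cores per kb at the centre, while all shared regions stay near 1.4 to 1.5.

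To see where the regions stood in cells that the rule placed in the rest, nuclei were put in classes by RNA markers. A class needed at least 4 of 8 markers and few UMIs of the other classes' defining genes. OPC numbered 458 nuclei, COP (with Bmp4 or Enpp6 RNA, and fewer than 3 of the ODC markers) 224, AST 1648, microglia (MG) 1028, inhibitory neurons (INH) 614 and excitatory neurons (EXC) 5143. The share of cut sites in the selective regions was graded along the lineage. It was 9.27% ± 0.639 in ODC, 6.79% ± 0.380 in COP and 4.04% ± 0.127 in OPC (mean ± SD over 4 libraries). AST held 1.41% ± 0.0683, INH 1.34% ± 0.0722, MG 0.822% ± 0.0545 and EXC 0.674% ± 0.0238. ODC levels chose the regions, so the place of ODC over the other classes is description only. The other classes supplied unequal parts of the rest, so their order is not independent of the rule. The COP values lay over all OPC values, and the OPC values over those of AST, INH, MG and EXC, while AST and INH overlapped. The ODC value was 9.90, 8.38, 9.37 and 9.42% in MF1, MF2, HF1 and HF2.

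**Figure D3:**
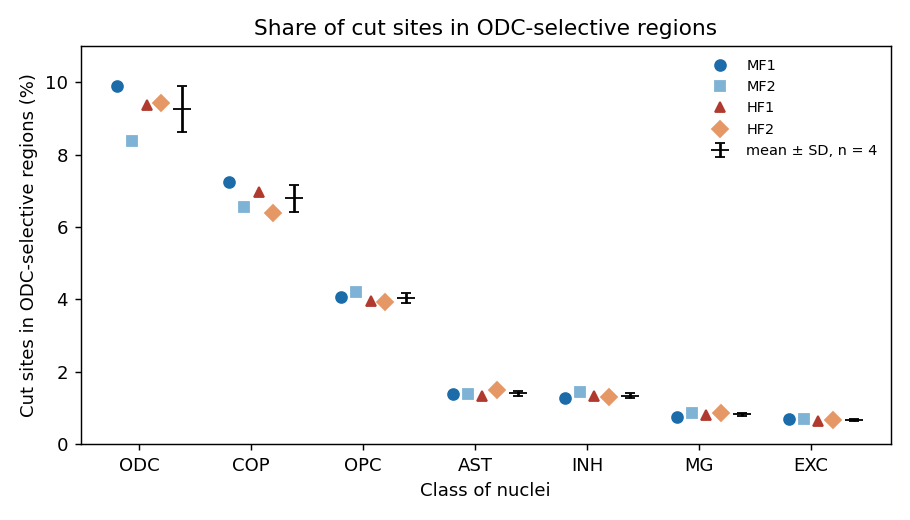
Percent of all cut sites of each class of nuclei that fell in the 4648 ODC-selective regions, by library; symbols are the 4 libraries and black bars give the mean ± SD over them. ODC chose the regions, so its height is a description, and the other classes show COP at 6.79% and OPC at 4.04% over AST, INH, MG and EXC at 1.41% or less.

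Median levels over the 4648 regions kept the order of ODC, COP and OPC but not that of the other classes, at 16.5 CPM in ODC, 7.75 in COP, 3.38 in OPC, 1.95 in INH, 1.09 in EXC, 0.980 in AST and 0.657 in MG. Among the other classes, COP had the highest level in 2929 regions (63.0%), OPC in 672 (14.5%), INH in 492 (10.6%) and AST in 284 (6.11%). Among all shared regions the class of highest level outside ODC was COP in 9.96%, OPC in 7.48%, INH in 16.5% and AST in 10.2%. EXC was highest in 2.17% of selective and 44.3% of all shared regions, and MG in 3.66 and 11.6%. These classes supplied unequal parts of the rest, from 0.777% of its cut sites for COP to 41.6% for EXC. A region high in a class that supplies much of the rest is harder to choose, so these shares are partly set by the rule. COP and OPC classes hold fewer cut sites than the others, which widens their counting error.

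COP and OPC were then compared by edgeR's quasi-likelihood test with the library as a block. Both classes lay in the rest, where COP supplied 0.777% and OPC 1.60% of the cut sites. The rule therefore limits OPC levels somewhat more than COP levels. Of the 4648 regions, 2669 passed the filter on low counts and 1979 did not. COP was higher than OPC in 1012 of the 2669 tested regions and lower in 57. The 1012 were 21.8% of all selective regions, tested or not. The 1012 regions had a median of 24.7 CPM in COP, 20.7 in ODC and 5.39 in OPC, and high COP levels are part of what called them. The 1600 regions tested and not called had medians of 12.9 CPM in COP and 19.02 in ODC. Without HF1, 674 of 2403 tested were called in either direction, against 1069 of 2669 with all libraries. No count over all regions is given for that refit, so it cannot show a loss particular to the selective regions. Of the 35471 regions tested genome-wide, 7.29% were called higher and 6.86% lower in COP. These shares go beside the calls among the 2669 tested, not beside the 21.8%. Without the filter, 4578 selective regions were tested and 742 were called higher and 67 lower, against 1.24 and 1.87% of all 136891 tested. The level was higher in COP in each of the 4 libraries in 1616 regions (34.8%), against 4.94% of all shared regions. The RNA of the 8 ODC markers moved with this result. It was 294 to 642 RNA CPM in COP, 58.4 to 145 in OPC and 5515 to 8410 in ODC, and its part in the result was not tested.

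The regions of lowest adjusted p higher in COP described here all lay in introns. The Tns3 region, at chr11:8637791-8638734, held 89.3, 89.9, 135 and 110 CPM in COP and 10.9, 7.54, 8.33 and 4.87 in OPC (log2 difference 3.76 ± 0.248 SE, edgeR adjusted p = 4.57e-18). Its ODC level was 43.6 to 48.5 CPM, below that of COP in all libraries. Tns3 encodes tensin 3, an adhesion adaptor, and its RNA was also highest in COP, with 1814 to 2040 RNA CPM in COP, 269 to 357 in OPC and 314 to 500 in ODC. A region in the noncoding gene 9530059O14Rik held 85.6, 101, 108 and 95.8 CPM in COP and 4.36, 10.97, 5.77 and 10.3 in OPC (log2 difference 3.65 ± 0.255, adjusted p = 4.05e-17). Its RNA was 1639 to 1794 RNA CPM in COP against 18.5 to 32.6 in OPC.

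The Sirt2 region, at chr7:28783646-28784557, held 78.9 to 95.8 CPM in COP and 1.45 to 9.60 in OPC (log2 difference 4.30 ± 0.312, edgeR adjusted p = 1.56e-16). Sirt2 encodes a deacetylase abundant in myelin and was itself 1 of the 8 COP markers, so its RNA is not compared. The Cdk14 region held 42, 36, 53 and 28 cut sites in COP and 0, 2, 0 and 0 in OPC (adjusted p = 2.54e-15), too few in OPC for a fold. It passed the count filter through its COP cut sites, so the call is not independent of the filter. Its ODC level was 8.17 to 11.2 CPM against 43.7 to 78.2 in COP, so this region was most open at the intermediate stage. Cdk14 RNA was 2205 to 3084 RNA CPM in COP and 264 to 355 in ODC.

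The 57 regions called lower in COP had a median of 27.6 CPM in OPC, 9.33 in COP and 22.3 in ODC. The one of lowest adjusted p lay in an intron of the noncoding gene C030007H22Rik, with 69.1, 85.0, 84.0 and 77.2 CPM in OPC and 37.2, 14.6, 11.9 and 23.1 in COP (log2 difference -1.96 ± 0.250, edgeR adjusted p = 1.62e-08). ODC held 29.3 to 39.5 CPM there, so ODC overlapped COP. Next in order was a region near 9430078K24Rik, at -1.57 ± 0.213 (adjusted p = 7.44e-08). A region near Cct6a held 37.8 to 44.9 CPM in OPC, 0 to 11.9 in COP and 40.6 to 51.7 in ODC (log2 difference -2.53 ± 0.386, adjusted p = 1.19e-06), and astrocytes held 29.96 to 42.4. The regions near Mtss1 and Actbl2 differed by -3.54 ± 0.570 and -2.11 ± 0.356 (adjusted p = 3.49e-06 and 8.65e-06).

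**Figure D4:**
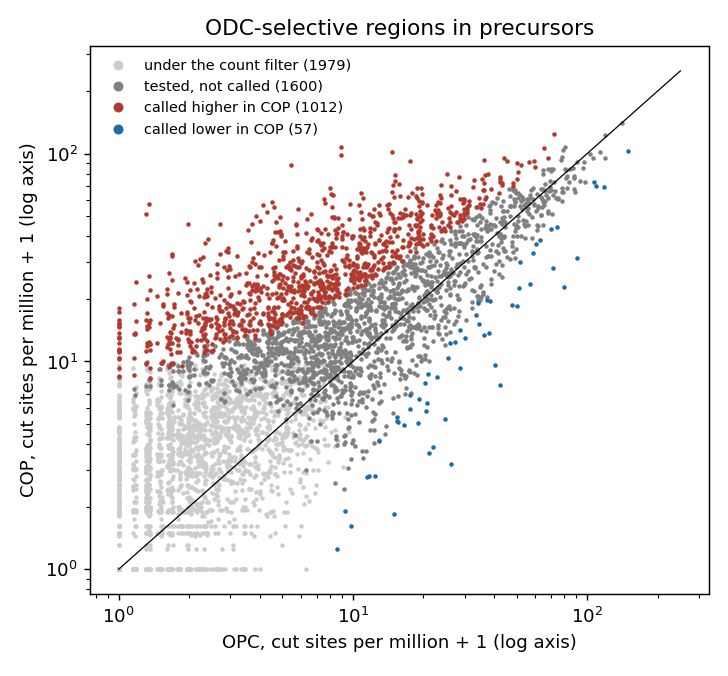
Mean level of each ODC-selective region over 4 libraries in OPC (x) and COP (y), in CPM plus 1 on log axes; colours give the edgeR call and the line marks equal levels. The 1012 regions called higher in COP lie over the line, the 57 called lower lie under it, and the 1979 under the count filter sit at the lower left.

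In each gene list, as over all selective regions, more regions were called higher than lower in COP. Each list held genes whose RNA chose the COP or OPC nuclei, and their regions were not left out. These genes were Sirt2, Enpp6, Tcf7l2, Bcas1, Gpr17 and Itpr2 for COP and Olig1 and Olig2 for OPC. Of the regions linked to myelin protein genes, 17 of 54 were called higher in COP than in OPC and 0 lower (38 tested). The counts were 6 of 29 for lipid synthesis, 16 of 58 for transcription factors and 22 of 68 for paranode and junction genes, with 0 lower in each. For receptors and signalling they were 15 of 80 higher and 2 lower. Over all 4648 regions the counts were 21.8% higher and 1.23% lower.

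Motif shares are given for the regions grouped by this call. CAGCTG was present in 48.3% of the 1012 regions called higher in COP, in 41.2% of the 1600 tested and not called, in 32.7% of the 1979 not tested and in 36.8% of the 57 called lower. A SOX core was present in 65.3, 66.8, 73.7 and 70.2% of the same groups. Their median GC was 50, 51, 48 and 52%, and among ODC-selective regions CAGCTG was more frequent and a SOX core less frequent at higher GC, at 22.3 and 79.4% in the lowest GC range above against 50.8 and 57.6% in the highest. Median levels of the untested regions were 13.7 CPM in ODC, 2.64 in COP and 1.03 in OPC, the lowest of these groups in both precursor classes.

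OPC and astrocytes come from the same libraries and are both glia, so their comparison asks which selective regions also separate lineage precursors from another glial type. AST supplied 5.78% and OPC 1.60% of the cut sites of the rest, so the rule limits AST levels more than OPC levels. The counts of calls in each direction are therefore not independent of the rule. Of the 4648 regions, 2348 passed the filter, and among these OPC were higher in 1578 and AST in 193. Over all 52651 regions tested, 20.5% were called higher and 26.4% lower in OPC. Without the filter the calls were 1524 and 233 of 4624 selective regions, against 5.81 and 11.2% of all regions. The region of lowest adjusted p lay in an intron of the noncoding gene Gm15966, with 123, 167, 144 and 159 CPM in OPC and 4.12, 5.93, 4.16 and 6.42 in AST (log2 difference 4.71 ± 0.142, edgeR adjusted p = 1.26e-22). ODC held 57.2 to 76.4 CPM. The next were a region linked to Lims2, an adhesion adaptor gene (5.71 ± 0.183, adjusted p = 4.32e-22), a region near AC134908.3 (4.52 ± 0.180, 6.46e-20), an intronic region of Serinc5 (5.12 ± 0.213, 1.94e-19) and a region near Gm11770 (4.43 ± 0.186, 2.62e-19). The region linked to Lims2 lay 27698 bp from the Lims2 start. It was at an annotated transcript start, which can be that of another gene.

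The 193 regions higher in AST than in OPC are described by the 5 of lowest adjusted p. The region in the span of Gm20388 at chr8:123785963-123786885 held 31.8, 45.9, 29.0 and 42.3 CPM in AST, 27.4 to 43.9 in ODC and 4 cut sites in all OPC (edgeR adjusted p = 2.15e-12). The promoter region of Olfml1, a secreted olfactomedin-like protein, held 25.5, 21.3, 24.96 and 24.5 CPM in AST and 0 to 2.74 in OPC (log2 difference -4.11 ± 0.430, adjusted p = 8.80e-10). Olfml1 RNA followed, with 35.0 to 48.6 RNA CPM in AST, 31.1 to 51.5 in ODC and 0 to 2.64 in OPC. Regions next to Adipor2, an adiponectin receptor gene, and in Slc48a1, a haem transporter gene, differed between OPC and AST by -2.74 ± 0.282 and -2.71 ± 0.285 on the log2 scale (adjusted p = 6.41e-10 and 9.88e-10). The fifth, in AC109138.8, held 3 cut sites in OPC and 15.8 to 19.8 CPM in AST (adjusted p = 2.23e-09). The regions of Gm20388, Olfml1 and AC109138.8 passed the count filter through their AST cut sites, so their calls are not independent of the filter.

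Genes linked to ODC-selective regions were more often transcribed in ODC. The comparison is between the same nuclei that chose the regions, so it is a description, and the 8 markers and 4 exclusion genes were left out. Of 3149 linked genes, 592 (18.8%) had RNA at least 2-fold higher in ODC than in the rest in every library, against 4.47% of the 23335 genes linked to any shared region. The share rose with the number of regions, from 12.9% of genes with 1 to 27.7% with 2, 47.3% with 3 or 4 and 56.3% of the 48 genes with 5 or more. Genes with more regions were also more often transcribed at all, with at least 10 RNA CPM in ODC for 49.7 and 91.7% of the first and last groups. Of the 179 genes linked to a selective promoter region, 53.1% had such 2-fold higher RNA. Most linked genes therefore had no such RNA difference.

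The precursor call went with RNA for a small part of the linked genes. Of 848 genes linked to a region called higher in COP than in OPC, 109 (12.9%) had RNA at least 2-fold higher in COP in every library. This was 6.26% for genes of regions tested and not called, 4.10% for regions not tested and 1.56% for all 23335 genes. The median log2 RNA difference of the 848 genes was 0.191, and most of them had no 2-fold difference. Tcf7l2, Sirt2, Bcas1, Itpr2, Enpp6 and Gpr17 were COP markers, so their own RNA chose those nuclei. Marker genes of COP and OPC were not left out of these counts.

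The diets were compared in ODC nuclei over libraries, and the share of cut sites in the selective regions overlapped between diets. The share of ODC cut sites in the regions was 9.14% ± 1.08 in MF and 9.40% ± 0.0352 in HF (SD, n = 2), a difference of 0.254 percentage points (two-sided exact permutation p = 1, where 0.333 is the smallest possible). The MF libraries, at 9.90 and 8.38%, enclosed both HF libraries, and the difference was 1.02 percentage points without MF1 and -0.507 without MF2. The median log2 fold change of HF over MF was 0.05 for the 4648 regions and -0.003 for all 65596 regions tested. For the selective regions it was 0.21 without MF1 and -0.037 without MF2. By list, the medians were 0.08 for myelin proteins, 0.01 for lipid synthesis, 0.06 for transcription factors, 0.03 for paranode genes and 0.04 for receptors.

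edgeR called 1 of the 4648 regions between diets and 3 of the 65596 tested (0.00457%), while 136 selective regions (2.93%) and 3.32% of all regions had an unadjusted p under 0.05. The count of selective regions called moved in refits without MF1 or without MF2, which leave 1 MF library. No share over all regions is given for those refits. The region called with all libraries lay at chr1:20743607-20744529, 13163 bp from the start of Il17a, in intergenic sequence. ODC nuclei held 5 and 7 cut sites there in MF1 and MF2 and 60 and 79 in HF1 and HF2, or 1.59, 1.85, 12.2 and 17.6 CPM. The 50 cut sites that the rule asks for came mostly from HF nuclei, so the region would not have been chosen with 50 asked of each diet, and its diet difference is not independent of the rule. Both HF values exceeded both MF values (log2 fold change 3.10 ± 0.456, edgeR adjusted p = 0.0145). The rest moved in the same direction, with levels of 0.273, 0.338, 0.809 and 1.2 CPM in MF1, MF2, HF1 and HF2. The peaks that the authors called covered 294 and 306 bp of the region in MF and 923 and 894 bp in HF, and cut sites were counted inside peaks only. Per 100 bp of peak the ODC cut sites, not scaled for depth, were 1.70, 2.29, 6.50 and 8.84. The part of the peak length in the call was not tested. Il17a, an immune cytokine gene, was at 0 in ODC of 3 libraries and at 1.18 RNA CPM in HF2, and the centre of the region was 66.7% GC.

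No region linked to the 5 gene lists was called between diets. The largest difference among them, in an intronic region of Mag chosen here after its values were seen, was between levels of 10.2, 8.44, 24.0 and 17.4 CPM in MF1, MF2, HF1 and HF2 (log2 fold change 1.18 ± 0.319, edgeR adjusted p = 1). The lowest list value was -0.83. Outside the lists, and chosen in the same way, regions near Ly6c1 and Abcg1 and one in Cdh13 were at -1.58, -1.08 and -1.15 on the log2 scale (adjusted p = 1 for each). The region linked to Defb42 was at 0.75 ± 0.218 (adjusted p = 1). The Abcg1 region was called when MF2 was left out, at -1.28 (adjusted p = 0.0344). Peaks covered 886 and 1005 bp of the Abcg1 region in MF and 517 and 696 bp in HF, and per 100 bp of peak the ODC cut sites, not scaled for depth, were 14.4, 11.3, 10.3 and 14.4 in MF1, MF2, HF1 and HF2, so the diets overlapped. At Ly6c1 they were 5.2, 6.49, 3.62 and 7.62, which overlapped as well. The diets stayed apart at Mag (4.25, 3.77, 13.3 and 9.22), Cdh13 (10.2, 13.6, 8.77 and 4.99) and Defb42 (10.2, 10.97, 26.3 and 21.6). ODC nuclei held 3135288 and 3793431 cut sites in MF1 and MF2 and 4908844 and 4487140 in HF1 and HF2. In RNA, 1880 linked genes were among the 10771 tested in ODC. edgeR and DESeq2 called 0 of these genes (0.0%), with 15 linked and 128 of all genes (1.19%) at an unadjusted edgeR p under 0.05. Refits without MF1 or without MF2 leave 1 MF library, so no rate of calls is drawn from them. In both, edgeR called some linked genes. With the replicate number as a block it called 1 linked gene and 19 of all genes.

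**Figure D5:**
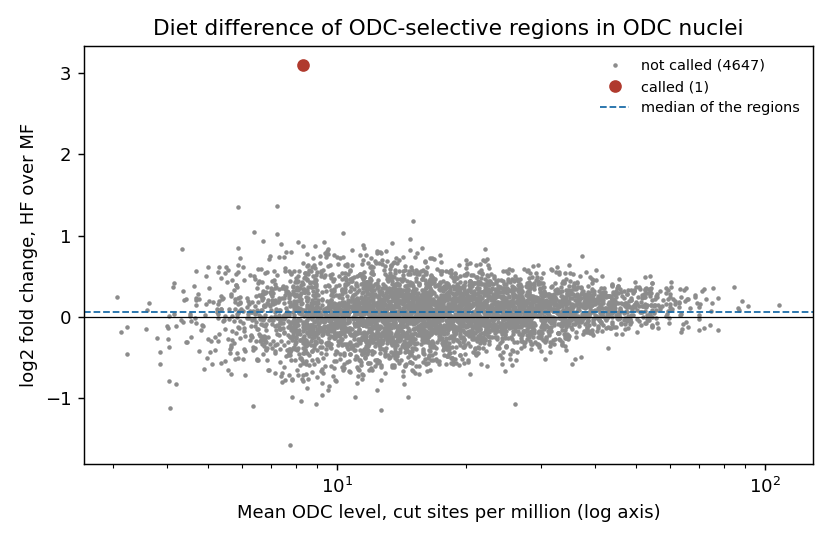
Log2 fold change of HF over MF (y) against the mean ODC level in CPM on a log axis (x) for each of the 4648 ODC-selective regions; the red point is the called region and the dashed line the median. The points centre on 0, with a median of 0.05, and the called region lies at 3.10.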

How the data were processed

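Single-nucleus multiome libraries from hippocampus were compared between diets and between classes of nuclei. Per the labels and the study's methods, the authors aligned reads to mm10 with Cell Ranger ARC 2.0.1 and called peaks in each library. The values deposited for GEX were UMI counts, and the deposited ATAC matrices held counts of cut sites per peak, mostly even (81.1 to 83.1% of entries). Neither was normalized by the authors. Both assays were joined by barcode.

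Overlapping peaks of the 4 libraries were merged into 253748 regions, and 154785 had a peak in each. Classes were defined by marker RNA; nuclei passing several gates were in none, no doublet caller was run, and some gate conditions were set after class sizes had been seen. All barcodes entered, and 3 of the study's limits (1000 to 70000 ATAC reads, applied here to counts of cut sites, 500 to 7000 detected genes, and less than 2% of UMIs from mitochondrial genes) served as an alternative. Its limits on nucleosome signal and TSS enrichment were not applied. Members and gene lists were chosen with earlier results of these data known. Regions named were the 20 of highest ratio, the top 3 per list, those called between diets, the 5 of lowest adjusted p in each direction of the other tests, the 5 genes with most regions and the regions at the threshold.

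Sums per library and class were tested with edgeR 4.0.16 (limma 3.58.1, R 4.3.3) by the quasi-likelihood F test, two-sided, with TMM normalization, filterByExpr and Benjamini-Hochberg adjustment over all features (called under 0.05). DESeq2 1.42.0, RLE normalization, no filter, each library left out and the replicate block were alternatives. The edgeR test gives no standard error, so SE is the absolute log2 difference over the square root of F. DESeq2 gave larger standard errors for the regions named from the tests, such as 0.321 against 0.248 at Tns3 and 0.652 against 0.456 near Il17a. The replicate numbers were not taken to pair libraries: deviations of same-numbered libraries correlated at 0.0626 for cut sites and 0.269 for RNA, over 2 pairs. Scripts were tested on simulated data. RNA ratios used a pseudocount of 1 CPM. Of 3267 linked genes 3157 were found among the GEX features. Annotation was GENCODE M21 and sequence was GRCm38, which has the chromosome lengths of mm10. Intervals for a count of 0 used 3 counts and took cut sites as independent. Since most entries were even, these bounds are too low. Some items covered by these rules are not reported here.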

Additional observations from a re-analysis of the deposited data

Results flagged for a closer look

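The share of EXC cut sites in the ODC-selective regions was 0.638% in HF1 and lay apart from the other 3 libraries, by a gap that passed Dixon's 95% limit for 4 samples. Of 7 classes examined over 4 libraries this was the only one set apart in this way, and chance sets apart about 1 in 20 such groups.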

How the results depend on the processing

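The number of ODC-selective regions was 2778 at a 6-fold threshold. It ran from 4410 to 4694 without a single library and stayed within 1.5 times of 4648 under the other alternatives, of which 2 (cut sites in shared regions as the denominator, 4593, and 50 cut sites in each diet, 4317) were chosen after the data were seen. Between diets, the count of selective regions called ran from 1 to 3 without a single library, with 3 when MF1 and 2 when MF2 was left out. It was 0 among the 4368 selective regions whose peaks covered like lengths in all libraries, a set without the Il17a region, and 1 with the replicate block. The median log2 fold change ran from -0.037 without MF2 to 0.21 without MF1. The HF minus MF share of ODC cut sites ran from -0.507 without MF2 to 1.02 without MF1 and was -0.0954 percentage points in nuclei within the limits on genes, mitochondrial UMIs and ATAC counts (exact permutation p = 0.667), so its sign rests on which library or nuclei are kept. The count of member-linked genes called between diets also depended on which library was left out. It was 1 of 2661 without the low-count filter, where 9 of all 20330 genes tested were called. With the replicate block it was 1, and 19 of all genes were called. For COP against OPC, the selective regions called ran from 674 (without HF1) to 869 without a single library. For OPC against AST they ran from 1523 to 1736. Counts over all regions in these refits are not given here. The named regions of both class comparisons kept direction and call in all 220 refits that could be made. Where a library was left out of the diet tests, the lone library of its diet was assumed to vary like the others. With 2 libraries per diet and 5 to 79 ODC cut sites in it, depth limits what the Il17a region can show.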
